A study of Homo sapiens with 6 samples.

Results

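The genes examined here encode the 8 subunits of TRiC, the cytosolic chaperonin also called CCT: TCP1 (subunit alpha), CCT2 (beta), CCT3 (gamma), CCT4 (delta), CCT5 (epsilon), CCT6A (zeta), CCT7 (eta) and CCT8 (theta). They were found by gene symbol, 1 row each, among the 30270 genes of the count table, and all 8 passed the filter on low counts. Total RNA was depleted of ribosomal RNA and sequenced from HEK 293T, an established line of embryonic kidney origin that carries the SV40 large T antigen. The series holds 3 WT libraries and 3 libraries labelled ΔTUT4/7, which are double knockouts of TENT3A and TENT3B, the uridylyltransferases TUT4 and TUT7. Neither group was treated. The libraries of a group are numbered biological replicates of 1 line, and whether the knockout line is 1 clone is not given in the sources used here. According to the methods, the WT cells came from a repository and the knockout cells from another laboratory, so the deletion and other differences between the lines cannot be told apart. The study asked how loss of both enzymes changes the transcriptome.

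TRiC is a chaperonin of stacked rings that encloses newly made proteins in a central chamber and closes over them as ATP is hydrolysed. Each ring holds every subunit once, in a fixed order, so the assembled complex needs the subunits in equal numbers. Actins and tubulins depend on it for folding, as do many proteins with WD repeat propellers. Prefoldin delivers unfolded chains to it, phosducin-like proteins act with it as cofactors, and the tubulin cofactors take over its folded tubulin. Genes of cytosolic chaperones are known targets of heat shock factors. The comparison below addressed whether the transcripts of a complex with fixed stoichiometry moved together.

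The library totals ran from 18757188 to 33148887 counts. Levels are given as CPM, counts per 1000000 of the TMM-scaled library, with mean ± SD over 3 libraries. Libraries within a group differed by more than sampling noise, with a chi-square per degree of freedom of 2.63 to 14.1. Of the targeted genes, TUT7 had 60.4, 62.6 and 64.8 CPM in WT and 27.2, 25.2 and 26.5 CPM in the libraries labelled ΔTUT4/7. TUT4 had 212, 216 and 206 CPM in WT and 882, 920 and 917 CPM in those labelled ΔTUT4/7, which goes against that label. Counts summed over a gene do not tell a complete mRNA from a disrupted one. Directions below rest on the label, and ΔTUT4/7 stands for the libraries so labelled. Of 6 genes chosen as markers of HEK 293T cells, all 6 were detected, from PAX2 at 2.15 ± 0.305 CPM to VIM at 496 ± 22.9 CPM in WT. In the libraries labelled ΔTUT4/7, 4 fell (NEFL, KRT8, LHX1 and PAX2, by log2 fold changes from -1.74 to -0.56) and 2 rose (VIM and KRT18, at 1.33 and 0.54). Over all tested genes, 29% were called lower and 28.6% higher at an FDR of 0.05 in edgeR. Whether the markers differ from these shares was not tested. Of 6 markers of blood, endothelial and liver cells, PECAM1 and ALB had at most 7 counts in any library and PTPRC, CD3E, CDH5 and HBB were not listed in the table.

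All 8 subunit transcripts were more abundant in the libraries labelled ΔTUT4/7, by between 22.5% for TCP1 and 124% for CCT2. Their summed level was 2642, 2740 and 2632 CPM in WT and 4420, 4523 and 4468 CPM in ΔTUT4/7, a ratio of 1.67. The median log2 fold change of the 8 genes was 0.69, against -0.02 over all 23952 genes tested and 0.14 over the 5892 abundant genes, those averaging at least 1000 counts per library. Each of the 8 passed an FDR of 0.05 in edgeR's quasi-likelihood test, where 28.6% of all tested genes and 51% of the abundant ones were called higher. None was called lower, against 29% of all tested genes. In all 8 the lowest ΔTUT4/7 library lay above the highest WT library, which was so for 30.9% of all tested genes and 52% of the abundant ones. In bulk RNA a change in the mix of cells and a change in RNA per cell cannot be told apart.

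CCT2 (chromosome 12, 69585426 to 69601570, plus strand) changed most. It had 223, 228 and 232 CPM in WT and 498, 520 and 508 CPM in ΔTUT4/7. The WT libraries lay within 9 CPM of each other, and the groups were far apart. On the log2 scale it rose by 1.16 ± 0.04 (SE, edgeR adjusted p 2.07e-15). A lower log2 fold change was found for 95.4% of tested genes and 97.6% of the abundant ones.

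CCT5 (chromosome 5, 10249929 to 10266389, plus strand) followed closely. It had 396, 418 and 400 CPM in WT and 847, 882 and 855 CPM in ΔTUT4/7, again with a wide gap between the groups. The increase was 1.09 ± 0.04 on the log2 scale (edgeR adjusted p 6.27e-15). CCT2 and CCT5 were the 2 subunits called at 2-fold or more, against 5.9% of all tested genes and 4.5% of the abundant ones. With library-size or upper-quartile scaling CCT5 fell just short of it, at 0.97 and 0.99.

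CCT4 (chromosome 2, 61868085 to 61888671, minus strand) had 342, 367 and 344 CPM in WT and 606, 629 and 612 CPM in ΔTUT4/7. CCT7 lies on the same chromosome (73233420 to 73253021, plus strand) and had 343, 343 and 324 CPM in WT and 584, 565 and 575 CPM in ΔTUT4/7. Both rose by like amounts, with log2 fold changes of 0.81 ± 0.04 and 0.77 ± 0.04 and adjusted p of 9.53e-13 and 1.57e-12 in edgeR. Their CPM ratio was 0.998, 1.07 and 1.06 in WT and 1.04, 1.11 and 1.06 in ΔTUT4/7, so the groups overlapped.

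CCT6A, CCT3 and CCT8 formed a lower group. CCT6A (chromosome 7, 56051685 to 56063989, plus strand) had 255, 259 and 252 CPM in WT and 382, 402 and 389 CPM in ΔTUT4/7. CCT3 (chromosome 1, 156308968 to 156367873, minus strand) had 493, 505 and 499 CPM in WT and 732, 727 and 760 CPM in ΔTUT4/7. CCT8 (chromosome 21, 29055805 to 29073797, minus strand) had 198, 195 and 192 CPM in WT and 278, 293 and 289 CPM in ΔTUT4/7. In none of the 3 did the groups come near each other. Their log2 fold changes were 0.61 ± 0.04, 0.57 ± 0.04 and 0.55 ± 0.04, with adjusted p in edgeR of 5.13e-11, 1.41e-10 and 3.51e-10.

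TCP1 (chromosome 6, 159778498 to 159789703, minus strand), the subunit that gave the complex its name, changed least. It had 392, 425 and 389 CPM in WT and 492, 505 and 480 CPM in ΔTUT4/7. The gap between the highest WT and the lowest ΔTUT4/7 library was 1.52 times the range of the WT libraries, while this figure was 9.74 or more for the other subunits. It rose by 0.29 ± 0.05 on the log2 scale (edgeR adjusted p 9.49e-06). A lower log2 fold change was found for 68.8% of tested genes and 61.7% of the abundant ones. With library-size and upper-quartile scaling the value was 0.18 and 0.19 (edgeR adjusted p 0.00253 and 0.00115).

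**Figure D1:**
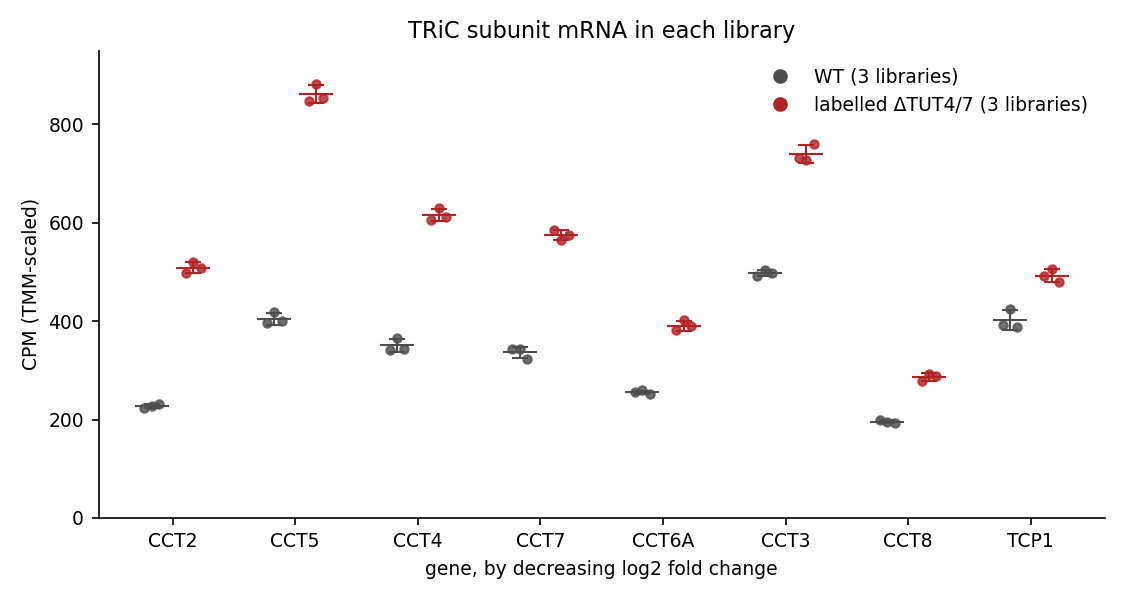
Level of each TRiC subunit transcript in CPM (y axis, from 0) for the 3 WT libraries (grey) and the 3 libraries labelled ΔTUT4/7 (red), with points for libraries and bars for mean ± SD. Genes run from the largest log2 fold change (CCT2, 1.16) to the smallest (TCP1, 0.29), and the groups do not overlap for any of the 8.

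Few stretches of these transcripts recur elsewhere base for base. Of the windows of 76 bases, the read length, in the canonical transcript of each subunit, none occurred in a transcript of another subunit, and at most 1.95% (CCT6A) occurred in a transcript of any other gene. No such window was shared for CCT2, CCT3, CCT4 and CCT7. Only exact matches were counted, so nearly identical sequence in pseudogenes is not covered. The table held 11 pseudogenes named after the subunits, and their estimated counts amounted to 10.8% to 12.3% of the CCT8 and pseudogene counts together, 7.41% to 9.4% for CCT6A, 7.48% to 8.55% for TCP1 and under 2% for the others. Of the 10 pseudogenes tested, 7 were called higher and 0 lower, against 28.6% and 29% of all tested genes, and 3 did not pass. Examples are TCP1P3, at 22.3 ± 2.34 CPM in WT and 29.5 ± 0.903 CPM in ΔTUT4/7 (log2 fold change 0.40 ± 0.08), and CCT8P1, at 25.1 ± 2.01 and 37.4 ± 1.57 CPM (0.59 ± 0.07). These values are uncertain, since a pseudogene shares much sequence with its parent. With pseudogene counts added to each subunit, CCT6A had a log2 fold change of 0.59 and TCP1 of 0.30.

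The subunits thus rose together in direction and unequally in size. Their log2 fold changes had an SD of 0.29 and a range of 0.87, where single values had an SE of 0.05 or less. Over the abundant genes the SD was 0.61. The clearest imbalance lay between TCP1 and CCT2. The CPM of TCP1 was 1.76, 1.86 and 1.68 times that of CCT2 in WT and 0.988, 0.972 and 0.945 times that of CCT2 in ΔTUT4/7. The log2 ratio differed by -0.87 ± 0.05 (SE over libraries), and since the pair was picked as the extremes it was not tested. Of the 28 ratios between 2 subunits, 25 (89.3%) did not overlap between the groups, while this was so for 81.5% of all pairs of abundant genes. The count is thus near this background, and the 28 ratios share 8 genes and are not independent. The subunits also had at least 3895 counts in every library, where abundant genes needed a mean of 1000, so their ratios separate more easily. The 3 ratios that overlapped were those of CCT4 to CCT7, CCT3 to CCT6A and CCT3 to CCT8.

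The balance was also expressed as the share of each subunit in the summed level of the 8, with counts divided by the exon length of each gene. This share does not depend on the scaling of a library. The share of CCT2 was 7.78%, 7.67% and 8.1% in WT and 10.4%, 10.7% and 10.5% in ΔTUT4/7. The share of CCT5 was 10.4%, 10.6% and 10.5% in WT and 13.3%, 13.6% and 13.3% in ΔTUT4/7. That of TCP1 was 11.8%, 12.4% and 11.8% in WT and 8.93%, 8.97% and 8.61% in ΔTUT4/7. CCT2 and CCT5 thus took a larger part of the TRiC transcripts and TCP1 a smaller one, with no overlap between the groups. CCT3 went from 18.8% ± 0.267 to 16.8% ± 0.461, CCT8 from 8.53% ± 0.218 to 7.51% ± 0.128 and CCT6A from 9.69% ± 0.0947 to 8.91% ± 0.13. CCT4 went from 18.9% ± 0.334 to 20% ± 0.184, and only CCT7 overlapped, at 13.7% ± 0.362 and 14.1% ± 0.399. The 7 shares of 8 that did not overlap are 87.5%, and the ratio of a gene to the summed subunits did not overlap for 86.5% of all genes averaging at least 50 counts, so that the count of shifted shares is near this background.

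**Figure D2:**
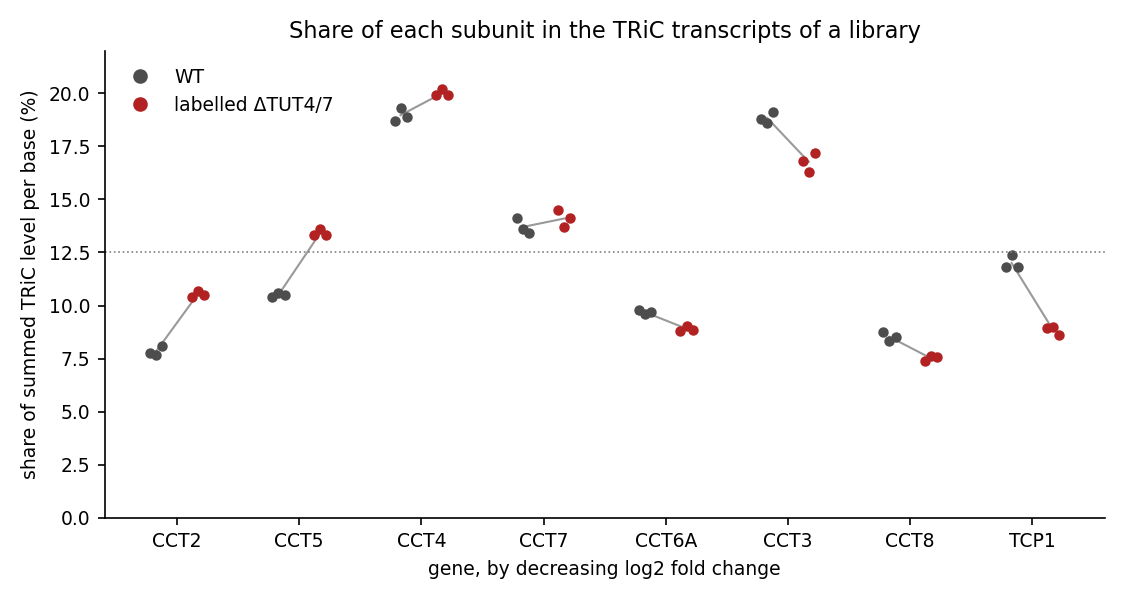
Share of each subunit in the summed TRiC level per base of exon (y axis, percent, from 0) in each WT (grey) and ΔTUT4/7 (red) library, with lines between group means and a dotted line at the 12.5% that equal levels would give. CCT2 and CCT5 moved up by 2.69 and 2.91 percentage points and TCP1 changed by -3.17.

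Unequal transcript levels were present in WT too. Per kilobase of exon, CCT4 and CCT3 stood highest in WT at 130 ± 5.03 and 129 ± 1.56 CPM per kilobase, a difference within their spread. CCT7 (93.8 ± 3.09), TCP1 (82.3 ± 4.09), CCT5 (71.8 ± 2.07) and CCT6A (66.4 ± 0.886) followed in that order. CCT8 (58.4 ± 0.883) and CCT2 (53.8 ± 0.978) stood lowest. In ΔTUT4/7 the order was CCT4 (228 ± 4.43), CCT3 (191 ± 4.59), CCT7 (160 ± 2.75), CCT5 (153 ± 3.21), CCT2 (120 ± 2.62), CCT6A (99.3, 104 and 101 in the 3 libraries), TCP1 (101 ± 2.59) and CCT8 (85.7 ± 2.38), where CCT6A and TCP1 lay within their spread. The highest subunit stood 2.36 to 2.52 times above the lowest in a WT library and 2.62 to 2.7 times in a ΔTUT4/7 library. With the length of the canonical transcript in place of all exons, CCT3 was highest and CCT6A lowest in every library, with ratios of 2.53 to 2.58 in WT and 2.37 to 2.55 in ΔTUT4/7, so the order of levels between genes depends on the length used.

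The genes lie on 7 chromosomes, and their surroundings differed. For each subunit the genes averaging at least 50 counts within 5 Mb on either side were taken. Around TCP1, 31 of 37 neighbours were called lower and 1 higher, with a median log2 fold change of -0.64. TCP1 lay above 36 of these 37. Around CCT5, 17 of 24 neighbours were called higher and 1 lower, with a median of 0.41, and CCT5 lay above 20 of them. The medians around the other subunits were between 0.03 (CCT4) and 0.22 (CCT2). Relative to the median of its neighbours, TCP1 stood at 0.93 and CCT2 at 0.94, followed by CCT4 at 0.79, CCT7 at 0.73, CCT5 at 0.67, CCT3 at 0.47, CCT8 at 0.42 and CCT6A at 0.41. The SD over the 8 genes was then 0.22, and 0.19 with windows of 2 or 10 Mb, in which TCP1 stood at 0.83 and 0.85 and CCT5 at 0.89 and 0.44. The part of the neighbourhood in these differences was not tested.

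**Figure D3:**
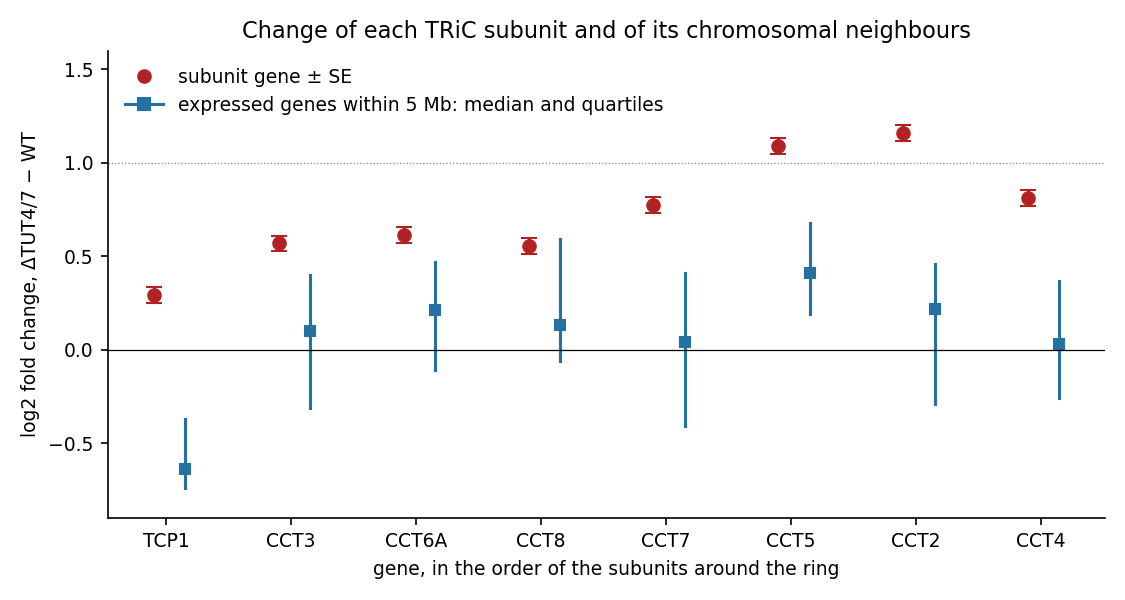
Log2 fold change of each subunit gene in ΔTUT4/7 relative to WT (red, ± SE) and median with quartiles of the neighbouring genes within 5 Mb (blue), on the same axis, with genes in the order of the subunits around the ring and a dotted line at a 2-fold increase. All 8 subunits are above 0, 7 of them, without CCT8, also above the upper quartile of their neighbours, and the neighbours of TCP1 have a median of -0.64.

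Some subunit genes share their start region with another gene. By annotation, 5 tested genes start within 1000 bases of a subunit gene on the other strand. PSPH, a serine biosynthesis enzyme that starts 81 bases from CCT6A, fell from 54.6 ± 0.743 to 35.4 ± 0.781 CPM (log2 fold change -0.63 ± 0.06, adjusted p 5.57e-09 in edgeR). MRPL18, a mitochondrial ribosomal protein gene 109 bases from TCP1, had 57.6 ± 0.137 and 58 ± 5.79 CPM (adjusted p 0.895). ATPSCKMT, 32 bases from CCT5, had 28.3 ± 2.41 and 31.8 ± 0.248 CPM (adjusted p 0.0511), with no overlap between the groups. COMMD1, 53 bases from CCT4, had 8.81 ± 1.1 and 7.39 ± 0.753 CPM (adjusted p 0.0753). PRADC1, 181 bases from CCT7, had 7.89 ± 0.759 and 8.1 ± 0.117 CPM (adjusted p 0.787). So 0 of the 5 were called higher in edgeR and 1 was called lower, where 28.6% and 29% of all tested genes were. With 5 genes these counts cannot be set apart from those shares. Before adjustment ATPSCKMT (higher) and COMMD1 (lower) also had p under 0.05. TSACC, described next, starts within 1000 bases of the RefSeq start of CCT3 on the other strand and was called higher.

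**Figure D4:**
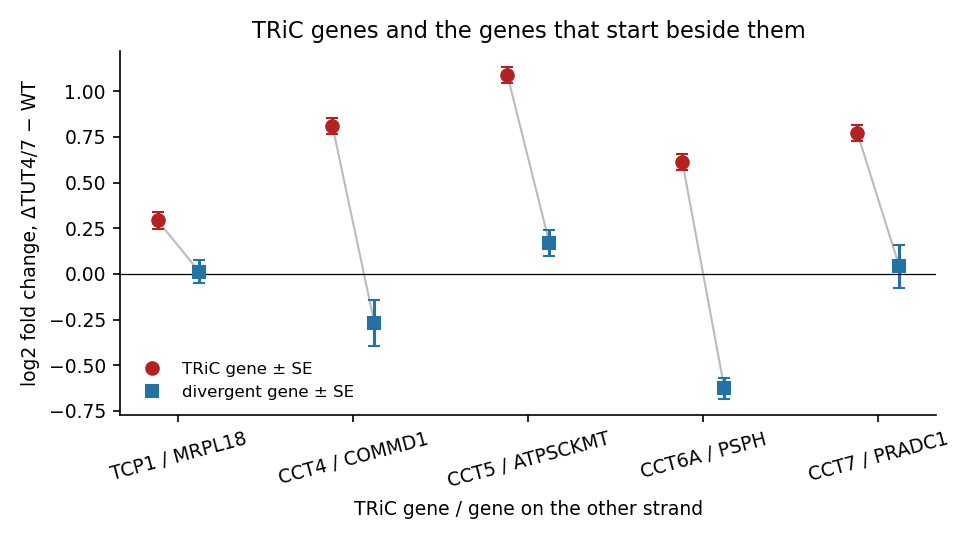
Log2 fold change (± SE) of 5 TRiC genes (red circles) and of the gene that starts within 1000 bases on the other strand (blue squares). The TRiC genes lie between 0.29 and 1.09, and their partners between -0.63 (PSPH) and 0.17 (ATPSCKMT).

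Reads of overlapping genes cannot be told apart where the counting did not use strand, which is not given in the sources used here. ACAT2, an acetyl-CoA acetyltransferase whose end overlaps the end of TCP1 by 454 exonic bases, rose from 39.7 ± 3.22 to 53.4 ± 1.94 CPM (log2 fold change 0.43 ± 0.06). TSACC, which lies inside CCT3 on the other strand with 0 shared exonic bases, rose from 1.25 ± 0.307 to 2.39 ± 0.121 CPM. An annotated long noncoding RNA on the other strand overlaps the end of CCT5 by 1734 exonic bases and was not matched in the table. Of the small nucleolar RNAs within the subunit genes, SNORA20 in TCP1 had 3 to 17 counts per library and an adjusted p of 0.589 in edgeR, and SNORA22B in CCT6A had at most 7 counts in any library and was not tested.

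The promoters of CCT2 and TCP1 are shown because these genes changed most and least. They were taken from RefSeq on GRCh38.p14, 250 bases before to 50 after the start, and 7 of the 8 subunits had an entry. The CCT2 window is chr12:69585209-69585508 on the plus strand and the TCP1 window chr6:159789553-159789852 on the minus strand. Capitals mark matches on either strand to GAANNTTC, a pair of heat shock element units, and to CCAAT, the letters of the CCAAT box.
CCT2: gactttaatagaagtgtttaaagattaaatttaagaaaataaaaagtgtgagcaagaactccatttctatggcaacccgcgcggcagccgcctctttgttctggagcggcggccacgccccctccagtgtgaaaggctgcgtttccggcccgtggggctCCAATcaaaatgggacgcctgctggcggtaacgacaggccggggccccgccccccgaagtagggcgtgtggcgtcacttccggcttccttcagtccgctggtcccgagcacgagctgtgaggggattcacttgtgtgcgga
TCP1: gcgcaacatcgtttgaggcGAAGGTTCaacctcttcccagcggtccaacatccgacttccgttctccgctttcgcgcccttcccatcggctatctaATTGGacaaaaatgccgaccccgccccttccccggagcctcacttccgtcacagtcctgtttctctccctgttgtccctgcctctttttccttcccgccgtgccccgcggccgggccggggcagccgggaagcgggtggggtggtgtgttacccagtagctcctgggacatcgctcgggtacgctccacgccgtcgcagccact
GAANNTTC was present in 1 of the 7 windows, that of TCP1, and in 6.77% of all 35116 promoters. CCAAT was present in 4 of 7, those of TCP1, CCT2, CCT3 and CCT8, and in 34.6% of all. The same element followed after 2 bases by a further GAA was in 0 of 7 and in 0.49% of all, and TATAAA and CACGTG (an E-box) were in 0 of 7 and in 11.5% and 7.26% of all. CCGGAAG, an ETS motif, was in 1 of 7, that of CCT2, and in 10.3% of all. The RefSeq start lies 33 bases inside the gene as counted for CCT2 and 101 for TCP1, but 608 for CCT5, 888 for CCT7 and 29581 for CCT3, so these windows miss the outermost start of the latter 3.

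Prefoldin, which hands unfolded actin and tubulin to TRiC, also has fixed stoichiometry and 6 subunits, and all 6 were called higher, against 28.6% of all tested genes and 51% of the abundant ones. The median log2 fold change was 0.59 with an SD of 0.27. VBP1 rose from 94.5 ± 8.38 to 187 ± 7.34 CPM (0.99 ± 0.06) and PFDN4 from 25.2 ± 1.02 to 49 ± 2.53 CPM (0.96 ± 0.07). PFDN2 (0.63 ± 0.14), PFDN6 (0.55 ± 0.10) and PFDN1 (0.52 ± 0.06) lay between, and PFDN5 changed least (0.28 ± 0.05). The SD of prefoldin was near the 0.29 of TRiC, at lower counts and with SEs of up to 0.14. Of the 15 ratios between 2 prefoldin subunits, 8 (53.3%) did not overlap between the groups. This was so for 25 of 28 (89.3%) in TRiC and for 81.5% of all pairs of abundant genes. Prefoldin genes had lower counts, such as PFDN2 with 248 to 671 per library, which makes ratios noisier. These percentages therefore do not compare the balance of the 2 complexes. The 20S proteasome core is another complex of rings with fixed stoichiometry. It had 13 of 14 genes called higher and 1 lower, a median of 0.46 and an SD of 0.33. Its genes ran from PSMB1 (-0.34 ± 0.06) to PSMA7 (1.04 ± 0.05), and 63 of their 91 ratios (69.2%) did not overlap between the groups. Some of these genes also had lower counts than any TRiC subunit, such as PSMB6 with 769 to 2135 per library.

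Cofactors of TRiC gave mixed results. PDCL3, a phosducin-like protein, had counts of 207, 280 and 339 in WT and 733, 485 and 468 in ΔTUT4/7, and rose from 10.8 ± 0.259 to 23.9 ± 1.06 CPM (1.14 ± 0.09, adjusted p 2.29e-10 in edgeR). The related PDCL and TXNDC9 did not pass, at 0.05 ± 0.08 and 0.09 ± 0.07, and PDCL2 was not listed in the table. Of the 6 tubulin cofactor genes 2 were called higher and 2 lower, near the 28.6% and 29% of all tested genes, and 2 did not pass. ARL2 rose by 1.24 ± 0.08 and TBCB by 0.70 ± 0.07, TBCD changed by -0.74 ± 0.06 and TBCE by -0.55 ± 0.05, while TBCA (0.24 ± 0.16) and TBCC (0.18 ± 0.10) did not pass.

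Of the 4 chaperonin-like genes tested, 0 were called higher in edgeR and 3 lower, against 28.6% and 29% of all tested genes. A list of 4 is too short to set these counts apart from those shares. CCT6B, the paralog of CCT6A known from testis, fell from 2.08 ± 0.46 to 0.946 ± 0.338 CPM (-1.19 ± 0.28, adjusted p 0.000993 in edgeR). Of the chaperonin-like proteins linked to Bardet-Biedl syndrome, BBS12 changed by -0.87 ± 0.14 and BBS10 by -0.20 ± 0.07, both called lower, and MKKS did not pass (0.12 ± 0.07). CCT8L2 was not listed in the table. Both genes of the mitochondrial chaperonin were called higher, against 28.6% of all tested genes and 51% of the abundant ones. A list of 2 is too short to set this count apart from those shares. HSPD1 rose by 0.96 ± 0.04 and its co-chaperonin HSPE1 by 1.02 ± 0.10, close to each other. Of the heat shock factors, HSF1 rose from 34.4 ± 3 to 50.7 ± 3.69 CPM (0.56 ± 0.07) and HSF2 did not pass (-0.01 ± 0.06).

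Transcripts of TRiC substrates were called higher in 11 of 14 and 6 of 8 cases in the lists below. Of all tested genes 28.6% were called higher, and of the abundant ones 51%. Neither count was tested against these shares, and the 8 genes of the shorter list are too few to set its count apart from the latter share. Some listed genes, such as TUBA4A, averaged under 1000 counts. Of 14 actin and tubulin genes 11 were called higher, 2 lower and 1 did not pass, with a median log2 fold change of 0.62. ACTB rose from 750 ± 36.9 to 1339 ± 45.1 CPM (0.84 ± 0.05) and TUBA1B from 688 ± 37.7 to 1202 ± 5.73 CPM (0.80 ± 0.05), which is close to CCT4. TUBA1C rose most (1.23 ± 0.05) and TUBA4A, at 3.09 ± 0.0619 CPM in WT, changed by -1.25 ± 0.22. TUBB, a beta tubulin, rose by 0.14 ± 0.04. Of 8 WD repeat substrates 6 were called higher, 0 lower in edgeR and 2 did not pass, with CDC20, an activator of the anaphase-promoting complex, at 0.64 ± 0.06 and PPP2R2A at -0.05 ± 0.05. Actins and tubulins belong to families with pseudogenes and like coding sequences, so single members are uncertain.

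**Figure D5:**
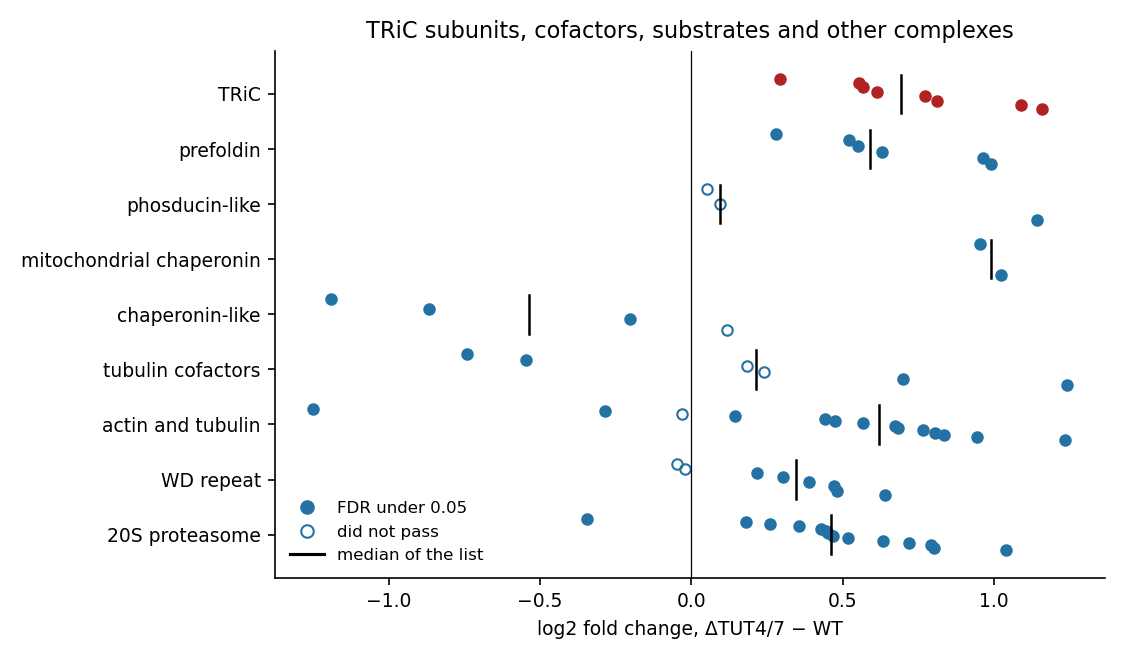
Log2 fold change of each tested gene (x axis) by list (rows), with filled points at FDR under 0.05, open points that did not pass, and a black bar at the median of the list. TRiC (red, median 0.69), prefoldin (0.59) and the mitochondrial chaperonin (0.99) lie to the right of 0 with every member. So do the 3 phosducin-like genes (median 0.09), 2 of which did not pass. The chaperonin-like genes (median -0.54) and tubulin cofactors do not.

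Among 11580 other protein-coding genes averaging at least 100 counts, those with the pattern most like the mean of the 8 subunits were PSME4, TOP2B, THOC2, DHX33 and RALGPS2. Likeness was the root mean square difference of centred log2 CPM over the 6 libraries, 0.015 for PSME4 and 0.021 for RALGPS2. Their log2 fold changes ran from 0.73 to 0.77. By the same measure the subunits lay between 0.039 (CCT7) and 0.222 (TCP1) from their own mean. The other genes named here were picked for the smallest values among 11580, while the subunits were not picked by this measure. The selection alone can make their values smaller, so whether other genes follow this mean more closely than the subunits was not tested.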

How the data were processed

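Paired-end reads were mapped by the authors with STAR 2.7.3a against hg38, and Ensembl genes were quantified in Partek Flow 10.0.22 by expectation maximisation. The deposited estimated counts, which need not be whole, were rounded. The authors' table of fold changes, p-values and least-squares means was not used. Genes whose maximum count exceeded 12 were tested (23952 of 30270) with TMM scaling and the quasi-likelihood test of edgeR 4.0.16 (R 4.3.3), with group as the only term and the Benjamini-Hochberg method across these genes. The scripts were tested on simulated data. Separate cultures are stated only as numbered biological replicates, so p-values measure the spread between these libraries. Gene models are GENCODE 44 on hg38, and the stop column, 1 base past the gene end, was printed without that base. Alternatives were library-size, RLE and upper-quartile scaling, DESeq2 1.42.0, limma 3.58.1, other filters, a replicate block, added pseudogene counts and each library left out. Canonical lengths and subtraction of neighbouring genes were added after seeing the data. Named genes are the subunits, the targeted genes, every gene of lists of 6 or fewer, the extremes of longer lists, the largest pseudogene, genes at the same position and the 5 most alike. TCP1P3, ACTB, TUBA1B, TUBB and the motifs were chosen after values were seen. The members and lists were chosen with earlier results of these data known.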

Additional observations from a re-analysis of the deposited data

How the results depend on the processing

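All 8 subunits were called higher under each of 16 other scalings, tools, filters, blocks and left-out libraries. The log2 fold change of TCP1 ran from 0.18 to 0.33 (adjusted p at most 0.00253), that of CCT2 from 1.04 to 1.18. Under library-size and upper-quartile scaling, which moved the median of all genes by -0.11 and -0.10, the median of the subunits was 0.58 and 0.59, 1 subunit rather than 2 reached 2-fold, and the subunits stayed 0.71 above the median of all genes. With genes averaging under 50 counts left out the median was 0.63. The SD over the subunits ran from 0.28 to 0.30 with each library left out. With genes within 5, 2 and 10 Mb subtracted it was 0.22, 0.19 and 0.19, and the median with 10 Mb was 0.64. With counts not divided by length the share of TCP1 changed by -4.03 percentage points and that of CCT5 by 4.11. Replicate numbers are shared by the groups, but the deviations of same-numbered libraries correlated by 0.0519, -0.0115 and -0.0222, so they do not pair them, and the replicate block called 13678 genes against 13813 and the same 8 subunits. The lowest count of a subunit in any library was 3895.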

Other observations

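In the assembled ring the subunits follow each other in the order TCP1, CCT3, CCT6A, CCT8, CCT7, CCT5, CCT2 and CCT4, which again borders TCP1. Read along this order, the log2 fold changes were 0.29, 0.57, 0.61, 0.55, 0.77, 1.09, 1.16 and 0.81, so that the 4 subunits with the largest changes are consecutive. The mean absolute difference was 0.23 between the 8 pairs of ring neighbours and 0.39 between the 20 other pairs. With the genes within 5 Mb subtracted, TCP1 stood at 0.93, above all but CCT2. The order was noticed after the values were seen and was not tested. It concerns transcripts of genes that, CCT4 and CCT7 apart, lie on different chromosomes.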
